A study of Bos taurus with 12 samples.

Results

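Mammalian mitochondria carry a small circular genome of their own. Its protein-coding genes give core subunits of respiratory complexes I, III and IV and of ATP synthase, and its rRNA and tRNA genes serve the translation of those subunits inside the organelle. Both strands are transcribed into long precursors that are cut largely at the tRNAs. Differences in level between mature RNAs of the same precursor are therefore set mostly after transcription. Liver is rich in mitochondria, and these transcripts are a usual part of a liver RNA library.

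The rows described here were chosen by identifier, as those from ENSBTAG00000043544 to ENSBTAG00000043584, a block of Ensembl numbers taken to hold the bovine mitochondrial genes. The block found 3 of the 27570 rows of the count tables: ENSBTAG00000043553, ENSBTAG00000043578 and ENSBTAG00000043581. The study compared liver of 6 Holstein dairy calves kept under postnatal heat stress with that of 6 calves kept under postnatal cooling, from birth to weaning and in group housing. Liver was biopsied at 42 days of age, and each calf gave 1 RNA library. No genotype, sex or sire is used here, and both groups were the same breed and tissue. The series asks whether heat in this period alters gene expression in the liver.

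The name of the block could not be checked in these data. The block spans 41 possible numbers, of which 38 had no row in the tables used here. In the 20 neighbouring windows of 41 numbers, between 21 and 31 had a row (median 23). The bovine mitochondrial genome of the RefSeq table holds 37 genes, 13 of them protein-coding, 22 for tRNAs and 2 for rRNAs. At most 3 of these 37 could be among the rows of the block. Whether mitochondrial genes have rows outside the block was not checked. Neither the count tables nor the RefSeq table pairs any of the 3 identifiers with a gene, so they are called by identifier, and no statement on respiratory chain transcripts, mitochondrial rRNA or mitochondrial tRNA is made. The share of liver RNA that came from the mitochondrial genome was not analysed here.

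**Figure D1:**
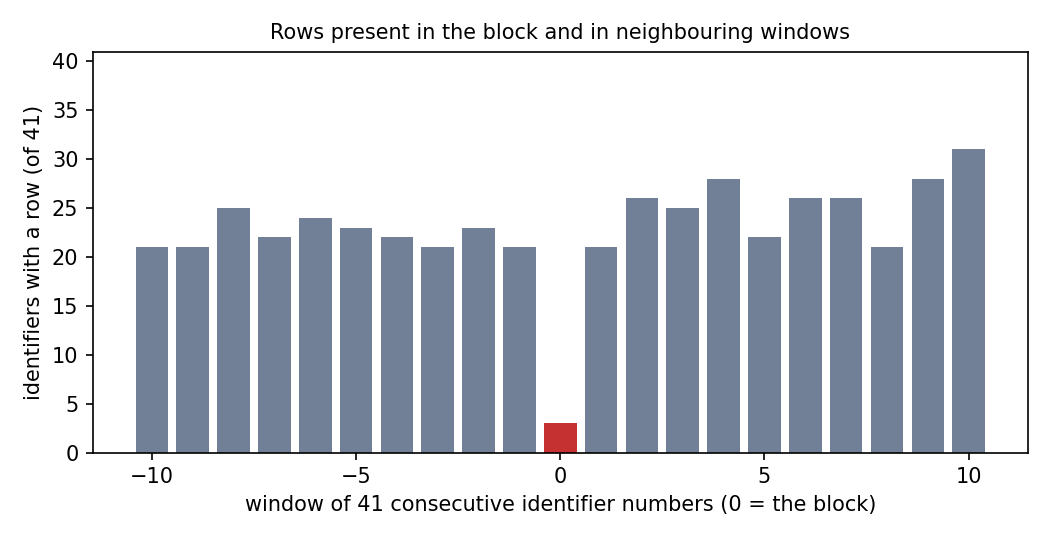
Bars give the number of identifiers with a row in the count tables, for windows of 41 consecutive identifier numbers, with window 0 (red) the block described here and 10 windows on either side. The block has 3 rows, where its neighbours have 21 to 31.

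Total counts ran from 22910846 to 32240168 per library. Levels are given as CPM, read counts relative to the library total after scaling by TMM (trimmed mean of M values, which corrects that total for differences in composition). Cooled calves 2 and 3 are numbered in listing order, like all calves, and their profiles of log2 CPM over the tested genes correlated at r = 0.990, where the other 65 pairs of libraries ran from 0.940 to 0.977 (across genes, which are not replicates). The edgeR fit and the exact permutation tests were therefore also run with their counts summed. Nothing but the series description says that the libraries came from separate animals. The p-values set the group differences against the spread between these libraries, each counted as a separate animal unless summed.

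ENSBTAG00000043553 was the abundant row of the block and varied widely between calves. In the cooled calves 1 to 6 it stood at 23.3, 274.1, 263.7, 159.5, 16.4 and 17.7 CPM. In the heat-stressed calves 1 to 6 it stood at 13.0, 20.2, 290.4, 360.7, 1705 and 173.9 CPM. The groups overlapped, with low and high calves in both. Heat-stressed calf 1 lay below every cooled calf and heat-stressed calves 3, 4 and 5 above every cooled calf. For heat-stressed calf 3 that position depended on the scaling. On the unscaled library total it had 0.0252% of counts on this row and cooled calf 2 had 0.0256%. Of the 12 calves, 5 lay between 13.0 and 23.3 CPM (3 cooled, 2 heat-stressed) and 7 between 159.5 and 1705 CPM (3 cooled, 4 heat-stressed), with no calf between those ranges. The step between the ranges was 6.85-fold. Heat-stressed calf 5 stood 4.73-fold above the next calf.

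These differences between calves were far larger than counting error. The lowest calf, heat-stressed calf 1, had 378 reads on this row, an exact 95% Poisson interval of 11.7 to 14.3 CPM. The highest, heat-stressed calf 5, had 45129 reads and an interval of 1689 to 1720 CPM. These intervals cover counting error only. The highest calf exceeded the lowest 132-fold over all calves and 16.7-fold within the cooled group. Of 1353 genes with a mean of 100 CPM or more, 5 had a ratio at least that of ENSBTAG00000043553 over the 12 calves (0.370%, the row itself among them), and the median ratio was 2.19. Without heat-stressed calf 5 the ratio was 27.8, reached by 7 of 1352 such genes (0.518%, again with the row itself), and the median was 2.11.

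**Figure D2:**
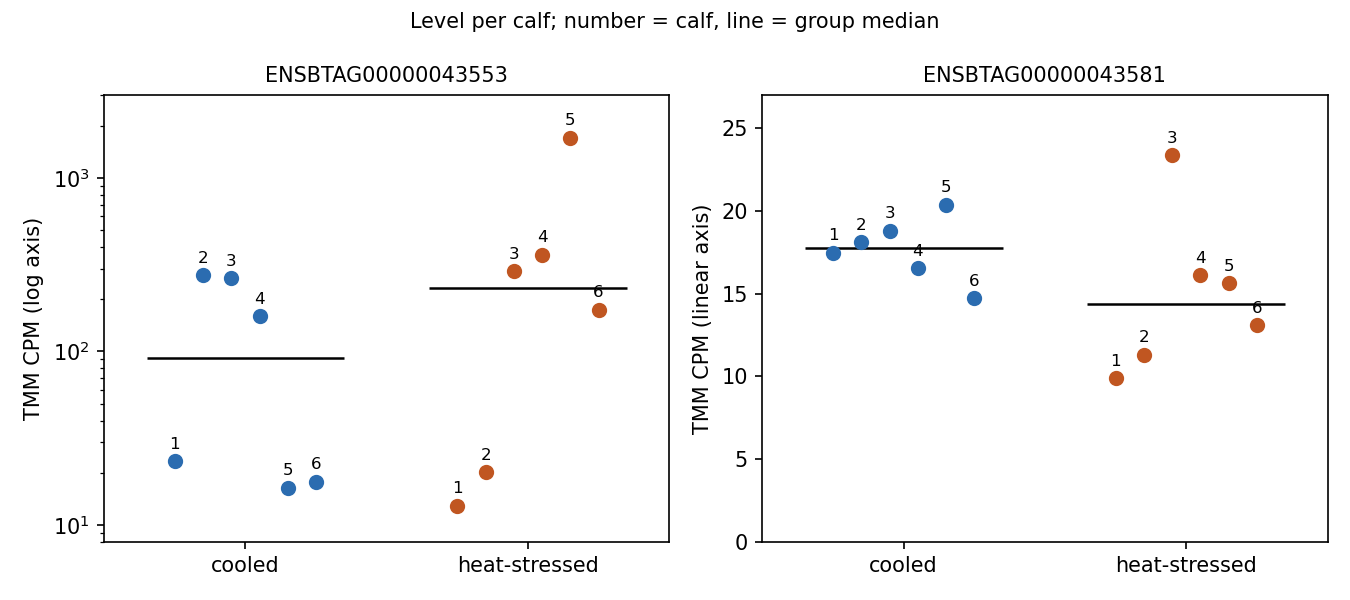
Points give TMM CPM per calf (number beside the point) for ENSBTAG00000043553 on a log axis and ENSBTAG00000043581 on a linear axis, with a line at each group's median. ENSBTAG00000043553 spans 13.0 to 1705 CPM with both groups in a lower and an upper range, and ENSBTAG00000043581 spans 9.90 to 23.4 CPM.

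Among cooled calves ENSBTAG00000043553 averaged 125.8 CPM ± 123.5 (SD, n = 6). Among heat-stressed calves it averaged 427.1 CPM ± 641.3 (SD, n = 6), and the medians were 91.4 CPM for cooled and 232.1 CPM for heat-stressed calves. The fitted log2 fold change, heat-stressed over cooled, was 1.76 (SE 1.01), or 3.40-fold with a 95% interval from 0.761-fold to 15.2-fold. It did not pass the test (edgeR quasi-likelihood test, unadjusted p = 0.102, Benjamini-Hochberg adjusted p = 0.551 over 14924 genes). A single library carried most of it. Without heat-stressed calf 5 the log2 fold change was 0.45 (SE 0.891, edgeR adjusted p = 0.802). With cooled calves 2 and 3 summed it was 2.14 (SE 1.10, edgeR adjusted p = 0.707).

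ENSBTAG00000043581 was scarcer and far steadier. In the cooled calves 1 to 6 it stood at 17.5, 18.1, 18.8, 16.5, 20.4 and 14.7 CPM, from 433 to 523 reads per calf. In the heat-stressed calves 1 to 6 it stood at 9.90, 11.3, 23.4, 16.1, 15.6 and 13.1 CPM, from 289 to 562 reads. The groups overlapped, with heat-stressed calves 1, 2 and 6 below every cooled calf and heat-stressed calf 3 above every cooled calf. That last position depended on the scaling: on the unscaled library total, heat-stressed calf 3 had 20.3 CPM and cooled calf 5 had 21.1 CPM. The position of heat-stressed calf 5 depended on it too. Unscaled, that calf also lay below every cooled calf, at 14.75 CPM where cooled calf 6 had 15.05 CPM. Heat-stressed calf 3 had a TMM factor of 0.867, the lowest of the 12. The part of the scaling in its level was not tested further.

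Cooled calves averaged 17.7 CPM ± 1.94 (SD, n = 6) for ENSBTAG00000043581. The average of the heat-stressed calves was 14.9 CPM ± 4.79 (SD, n = 6). The log2 fold change was -0.25 (SE 0.185), or 0.843-fold with a 95% interval from 0.642-fold to 1.11-fold, and did not pass the test (edgeR adjusted p = 0.597). A 2-fold lower level lay outside that interval, which is for this row taken alone. Without heat-stressed calf 3 the log2 fold change was -0.42 (SE 0.153), and without heat-stressed calf 1 it was -0.15 (SE 0.176). Neither passed the threshold (edgeR adjusted p = 0.252 and 0.858).

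ENSBTAG00000043578 was barely detected. It had 4 reads in all over the cooled calves and 3 over the heat-stressed calves, with 2 reads in cooled calves 3 and 4 and heat-stressed calf 2, and 1 read in heat-stressed calf 4. The other 8 calves had 0 reads, which allows up to 0.101 to 0.125 CPM at the depth of these libraries (3 counts per library). It was left out of the test by the filter on low counts, and no difference between the groups was detectable at this depth.

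Over the 3 rows, 2 were tested and 0 passed an adjusted p under 0.05 in either direction, where 0% of the 14924 tested genes did. At an unadjusted p under 0.05, 0 of the 2 passed, where 9.37% of the tested genes did. DESeq2 gave a value for all 3 rows, ENSBTAG00000043578 included (DESeq2 adjusted p = 0.977 for that row). Of the 3, 0 passed an adjusted p under 0.05, where 0.0615% of genes did. The groups overlapped for both tested rows. They did not overlap for 0.389% of the tested genes.

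**Figure D3:**
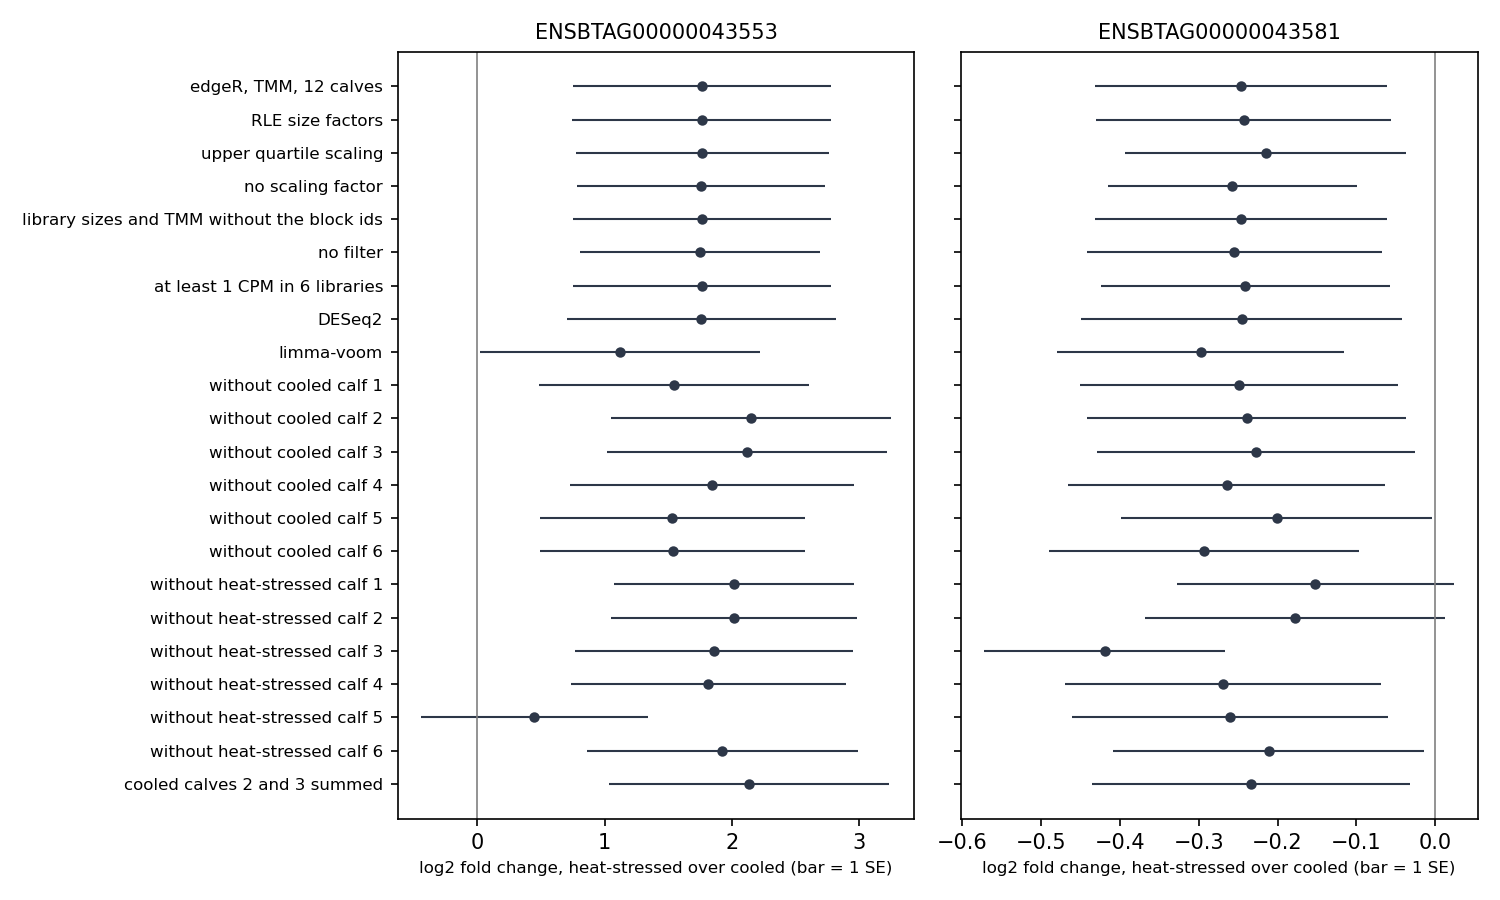
Points give the log2 fold change, heat-stressed over cooled, with a bar of 1 SE, for the 12-calf edgeR fit and each alternative including leaving out each calf. ENSBTAG00000043553 moves from 1.76 to 0.45 without heat-stressed calf 5, and ENSBTAG00000043581 stays between -0.42 and -0.15.

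The 2 tested rows also differed in their spread within groups. The biological coefficient of variation, the square root of edgeR's fitted dispersion and so the variation between calves of a group beyond counting error, was 1.08 for ENSBTAG00000043553. The trend for genes of its abundance was 0.278 and the median of all tested genes 0.256. A higher coefficient was fitted for 32 of 14924 genes (0.214%). Without heat-stressed calf 5 it was still 0.952, with 57 of 15079 genes higher, so the spread did not rest on that calf alone. For ENSBTAG00000043581 the coefficient was 0.238 against a trend of 0.262, with 58.9% of genes higher.

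**Figure D4:**
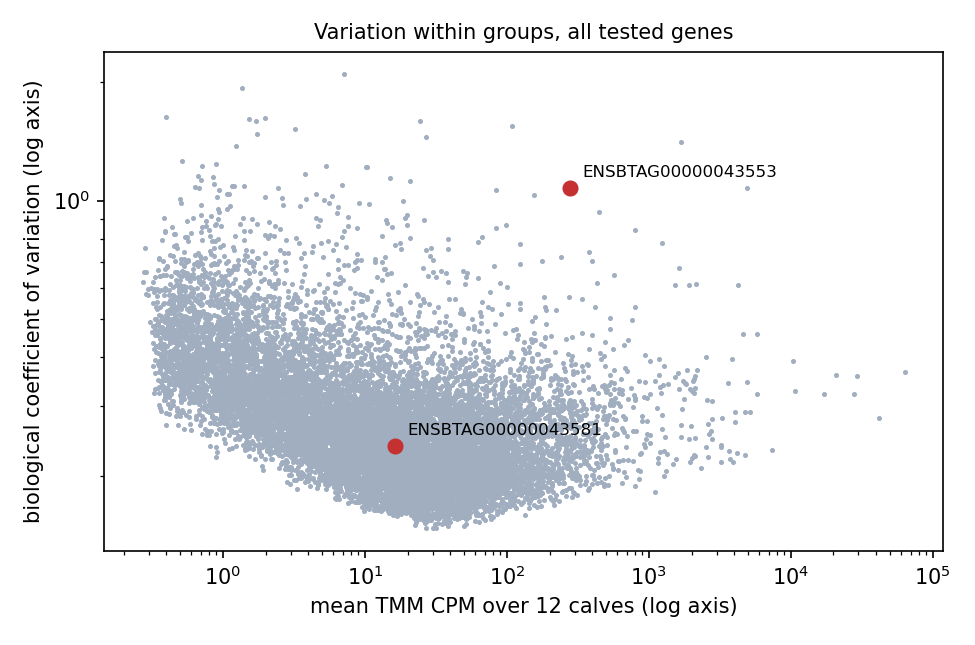
Each grey point is 1 of the 14924 tested genes, with mean TMM CPM over 12 calves against the biological coefficient of variation within groups, both on log axes, and red points are the 2 tested rows of the block. ENSBTAG00000043553 lies at 1.08, above nearly all genes of its level, and ENSBTAG00000043581 at 0.238 lies amid the other genes.

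Summed, the 3 rows took a small share of each library. The share ran from 0.00332% to 0.0272% of all counts in cooled calves (median 0.0110%) and from 0.00249% to 0.162% in heat-stressed calves (median 0.0238%). The means were 0.0138% ± 0.0114 (SD, n = 6) and 0.0421% ± 0.0604 (SD, n = 6). The difference of 0.0284 percentage points was no larger than the variation among calves allows (exact permutation test, two-sided, p = 0.290, with 924 assignments and a smallest possible p of 0.00216). Without heat-stressed calf 5 the difference was 0.00433 percentage points (p = 0.580, exact permutation test).

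The sum followed ENSBTAG00000043553. That row held between 44.6% and 93.8% of the reads of the block in cooled calves and between 56.7% and 99.1% in heat-stressed calves. Its mean share of the block was 72.3% ± 22.6 (SD, n = 6) in cooled and 83.5% ± 18.3 (SD, n = 6) in heat-stressed calves (p = 0.268, two-sided exact permutation test). Shares of reads between rows are not per length, since no length is paired with these identifiers.

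The 2 rows under a mean of 100 CPM were also summed, which was ENSBTAG00000043581 with 7 reads of ENSBTAG00000043578 added. On the unscaled library total the sum averaged 17.6 CPM ± 2.04 (SD, n = 6) for cooled calves. For heat-stressed calves it averaged 14.7 CPM ± 3.26 (SD, n = 6). The difference of -2.88 CPM did not pass the test (p = 0.0996, two-sided exact permutation test). Without heat-stressed calf 3 it was -3.99 CPM (p = 0.00866, exact permutation test), the one calf whose removal brought it under 0.05. That p is for a single value picked from 12 removals and is not adjusted.

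Whether the abundant and scarce rows varied together was not tested. The planned correlations, over all 12 calves and within each group, were left out by choice, because the calves fell into separate ranges of ENSBTAG00000043553. Those ranges were cut at the largest step between these same values, and whether they are distinct classes was not tested.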

How the data were processed

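The deposited values were whole-number read counts per Ensembl identifier, 1 table per calf, with no scaling. HISAT2 and HTSeq on the build ARS-UCD1.2, preceded by Trim Galore 0.4.4 and FastQC 0.11.7, are named without further settings, per the submitters' processing notes. What annotation release or strand setting was used, and whether rows were removed, is not given in the sources used here. Groups were taken from the treatment in the labels. Counts were fitted in R 4.3.3 with edgeR 4.0.16 (filterByExpr, TMM, glmQLFit and glmQLFTest, two-sided, Benjamini-Hochberg over 14924 genes). Single values per calf were compared by exact permutation in Python 3.11.15 with scipy 1.17.1. Alternatives used DESeq2 1.42.0 and limma 3.58.1, other scalings and filters, the removal of each calf, and cooled calves 2 and 3 summed. The fits were also run on simulated counts with known changes, drawn with the fitted dispersions, and the outcome is not given here.

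The block and the lists were chosen with earlier results of these data known. The rule for naming took all identifiers of the block. Lists of nuclear respiratory chain, mitochondrial RNA processing, biogenesis and liver cell type marker genes were set by symbol. None could be counted, because the RefSeq table (assembly ARS-UCD2.0) gives an Ensembl identifier in 0 of its 37063 rows. The 27570 identifiers could therefore not be matched to symbols, and the tissue label was not checked against markers either. A planned correlation between the rows, over 12 calves and within each group, is not given. It was left out by choice, since the calves fell into separate ranges of 1 of the rows.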

Additional observations from a re-analysis of the deposited data

Results flagged for a closer look

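Heat-stressed calf 5 lay far from the other 5 calves of its group in 2 of the measures that ENSBTAG00000043553 sets. It stood at 1705 CPM for that row, where the next calf stood at 360.7 CPM, a gap of 0.794 of the group's range against Dixon's critical value of 0.625 for 6 samples. Its summed share of counts on the 3 rows was 0.162%, where the next calf had 0.0370%, a gap of 0.784 of the range. These are the same reads counted in different ways. The share of the block on ENSBTAG00000043553 did not pass the critical value, at 99.1% in heat-stressed calf 5 and 95.7% in the next calf. Of 12 sets of 6 calves checked, 2 passed the critical value. Chance passes about 1 set in 20 only where values are normally distributed, which was not tested. The values were not put on a log scale for this check.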

How the results depend on the processing

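ENSBTAG00000043553 kept a positive and ENSBTAG00000043581 a negative log2 fold change in all 21 alternatives run for each, and neither passed an adjusted p under 0.05 in any. With each calf left out in turn, values ran from 0.45 to 2.15 for ENSBTAG00000043553 (edgeR adjusted p from 0.370 to 0.841) and from -0.42 to -0.15 for ENSBTAG00000043581 (edgeR adjusted p from 0.252 to 0.858). With limma-voom ENSBTAG00000043553 was at 1.12 (limma adjusted p = 0.651), the lowest of the 9 other settings. Removing the 3 rows from the library sizes left it at 1.76. Over all tested genes edgeR called 0 higher and 0 lower, with 1399 at an unadjusted p under 0.05. DESeq2 called 7 higher and 6 lower, and none of the 3 rows was among them (DESeq2 adjusted p = 0.680 for ENSBTAG00000043553 and 0.757 for ENSBTAG00000043581). Without 1 calf edgeR called 0 to 1 higher and 0 lower. The cause was not tested. The summed share kept its sign in 17 alternatives, with p from 0.143 to 0.580. Leaving out 1 calf gave a difference of 0.00433 to 0.0363 percentage points. For the 2 scarce rows the difference ran from -3.99 to -2.10 CPM (unscaled) without 1 calf, with p from 0.00866 to 0.199 (exact permutation tests). The alternatives planned for the correlation between the rows were not run. The groups were compared as unpaired, and no paired analysis was run. The labels give no replicate numbers and no pairs. Depth limits ENSBTAG00000043578, at 7 reads in all.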
